A study of Mus musculus with 6 samples.

Results

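The genes described here encode the nuclear-coded proteins of the mitochondrial respiratory chain and ATP synthase in DN3 thymocytes of the mouse. They were chosen by name: rows whose symbol begins with Nduf, Uqcr, Cox4 to Cox8 or Atp5, or is one of Sdha, Sdhb, Sdhc and Sdhd, and whose counts summed to at least 60 over the 6 libraries. Of 24015 gene symbols, 92 carried such a name and 86 met the sum. The 6 left out were Ndufs5, Cox8c and Cox7b2, each with a count of 0 in all libraries, and Cox8b, Ndufa4l2 and Cox4i2 with sums of 1, 4 and 19. The lowest sums among the 86 were 93 for Cox6a2 and 233 for Cox7a1. All 86 had enough counts to be tested. By role, 35 belonged to complex I, 4 to complex II, 8 to complex III, 14 to complex IV (Ndufa4 included), 15 to complex V and 10 to assembly and linked factors.

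The respiratory chain sits in the inner mitochondrial membrane. Complexes I and II take electrons from NADH and succinate, complex III passes them to cytochrome c, and complex IV hands them to oxygen; complex V, the ATP synthase, uses the proton gradient so formed to make ATP. A few subunits of complexes I, III, IV and V are encoded by mitochondrial DNA, while the others, and all of complex II, are encoded in the nucleus. Dividing thymocytes are known to rely on mitochondrial respiration as well as glycolysis. None of the mitochondrially encoded protein genes was among the symbols of the files, so the values concern nuclear genes.

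RNA was sequenced from sorted DN3 cells, thymocytes at the stage of T cell receptor beta rearrangement, which were negative for other lineages, CD4 and CD8, low for CD44 and high for CD25. Tcf1-deficient cells came from Lck-cre+ Tcf1 fl/fl mice, in which Cre driven by the T-lineage gene Lck is meant to remove all Tcf1 proteins, per the labels. p45-deficient cells came from p45-/- mice, without the long Tcf1 isoforms but with the short ones; Tcf7 encodes all of these DNA-binding factors. Control cells are labelled wild type, and no group with Cre alone or floxed alleles alone is among the 6 libraries. Each genotype had 2 libraries. The labels give no age or sex, and leave unsaid if each library is a different animal. The p-values therefore reflect library-to-library spread, possibly technical.

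Library totals ran from 19640524 to 28107031 counts. Levels are given as CPM, read counts relative to the library total after TMM scaling. Tcf7 had 979 and 976 CPM in Tcf1-deficient, 2340 and 2414 CPM in p45-deficient and 2088 and 1810 CPM in control cells, a log2 fold change against control of −1.0 (SE 0.11, edgeR adjusted p = 0.0762) in Tcf1-deficient and 0.29 (SE 0.11, edgeR adjusted p = 0.115) in p45-deficient cells. Counts per gene do not separate its isoforms, so they check no loss of p45, and the Tcf7 counts left in Tcf1-deficient cells do not show whether all Tcf1 protein was lost. All 9 markers of DN3 cells were detected in each library, summing to between 7136 and 10437 CPM. Tcf1-deficient replicate 1 stood apart, with the lowest of these sums and with 372 CPM of Cd4, whose product the sort selected against, beside 46.1 CPM in replicate 2. Double-positive thymocyte markers summed to 484 and 76.2 CPM in Tcf1-deficient, 285 and 252 CPM in p45-deficient and 210.2 and 154 CPM in control cells, with both p45-deficient libraries above both controls. Myeloid and dendritic markers summed to 96.9 and 19.6 CPM in Tcf1-deficient, 22.9 and 24.03 CPM in p45-deficient and 79.2 and 36.9 CPM in control cells, so both p45-deficient sums lay below both controls. Cd74 was the largest part in these 2 genotypes, at 12.8 and 12.4 CPM in p45-deficient and 48.9 and 17.4 CPM in control cells. Lyz2, Itgax, Flt3 and H2-Aa also lay below both controls in p45-deficient cells, while Itgam and Csf1r overlapped. B cell markers summed to 13.5 to 35.2 CPM over the 6 libraries, with Pax5 at 0 in 5 of them, and 3 of 4 erythroid markers were at 0 throughout. Stromal markers summed to 65.0 to 114 CPM, most of it Epcam, with Foxn1 at or under 0.0479 CPM. The part of these other cells in the results below was not tested, and in bulk RNA fewer cells of a type and less RNA per cell cannot be told apart.

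Summed over the 86 genes, respiratory chain transcripts reached 10192 and 10456 CPM in Tcf1-deficient cells, 12655 and 13344 CPM in p45-deficient cells and 9903 and 10201 CPM in control cells. The p45-deficient libraries were the highest of the 6, at 1.29 times the control mean, whereas the Tcf1-deficient mean was 1.03 times the control mean. Both p45-deficient libraries lay above the other 4 libraries for 71 of the 86 genes, against 27.4% of all genes tested. The p45-deficient libraries were also the highest for each complex, as the plot of summed levels by complex shows, while those of the other genotypes lay close together. Complex I summed to 2345 and 2381 CPM in Tcf1-deficient, 3027 and 3187 CPM in p45-deficient and 2335 and 2352 CPM in control cells. Complex IV summed to 1418 and 1436 CPM in Tcf1-deficient, 1825 and 1953 CPM in p45-deficient and 1361 and 1397 CPM in control cells. The smallest separation was in complex II, with 641 and 702 CPM in Tcf1-deficient, 723 and 766 CPM in p45-deficient and 667 and 666 CPM in control cells. With 2 libraries a group, an exact permutation test of such a sum cannot go below p = 0.33, so the sums are given without a test.

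**Figure D1:**
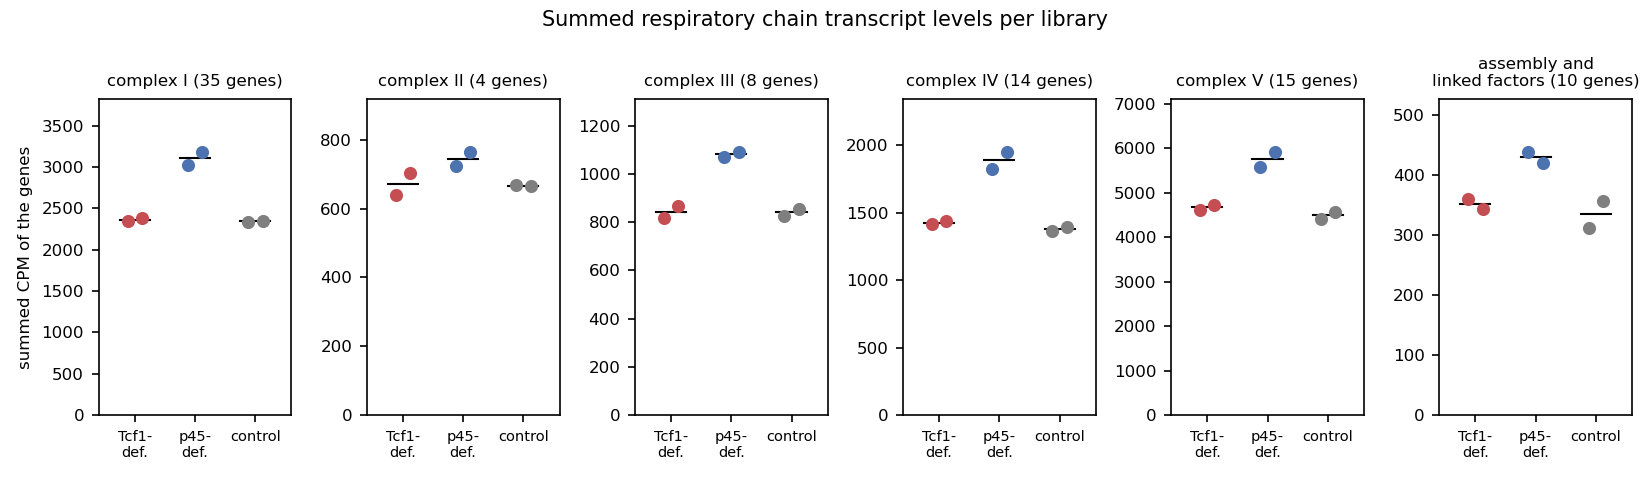
Summed CPM of the genes of each complex (y axis, from 0) in each library (points) by genotype (x axis), with the group mean as a line. Both p45-deficient libraries lie above the other 4 in every panel; for complex I they stand at 3027 and 3187 CPM.

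Per kilobase of annotated transcript, the genes of ATP synthase were the most abundant and the assembly factors the least. The median level of the complex V genes was 227 CPM per kilobase in Tcf1-deficient, 343 in p45-deficient and 225 in control cells. Complex I genes had medians of 82.5 in Tcf1-deficient, 100.1 in p45-deficient and 87.8 CPM per kilobase in control cells. Assembly and linked factors had medians of 10.7, 14.4 and 10.3 CPM per kilobase in the same order of groups. The highest single level was that of Atp5b, the catalytic beta subunit, at 787 CPM per kilobase in Tcf1-deficient, 877 in p45-deficient and 754 in control cells, and the lowest that of Cox6a2, at 0.534, 0.693 and 1.70 CPM per kilobase.

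In p45-deficient against control cells, 27 of the 86 genes rose and 1 fell at an adjusted p below 0.05 (edgeR quasi-likelihood F test over all tested genes, two-sided, Benjamini-Hochberg). Over all 12939 genes tested, 8.47% rose and 7.55% fell, 16.0% in all. An unadjusted p under 0.05 was found for 58 of the 86 genes and 33.8% of all. The median log2 fold change was 0.42 for the 86 genes and 0.05 for all genes tested, and 82 of the 86 had a positive value. Both p45-deficient libraries exceeded both controls for 77 of the 86 genes, against 37.9% of all genes, and lay below both for 3, against 31.3%. The count depends on single libraries. The genes called higher numbered 0 when either p45-deficient library (replicate 1 or 2) was left out, 0 without control replicate 1 and 2 (Atp5h and Cox6c) without control replicate 2. They numbered 45 without Tcf1-deficient replicate 1 and 59 without replicate 2. Calls over all genes moved too: between 0.863% and 1.49% of all genes were called higher without a p45-deficient or control library, 14% without Tcf1-deficient replicate 1 and 16.4% without replicate 2. The median stayed between 0.36 and 0.45 across these 6 fits.

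**Figure D2:**
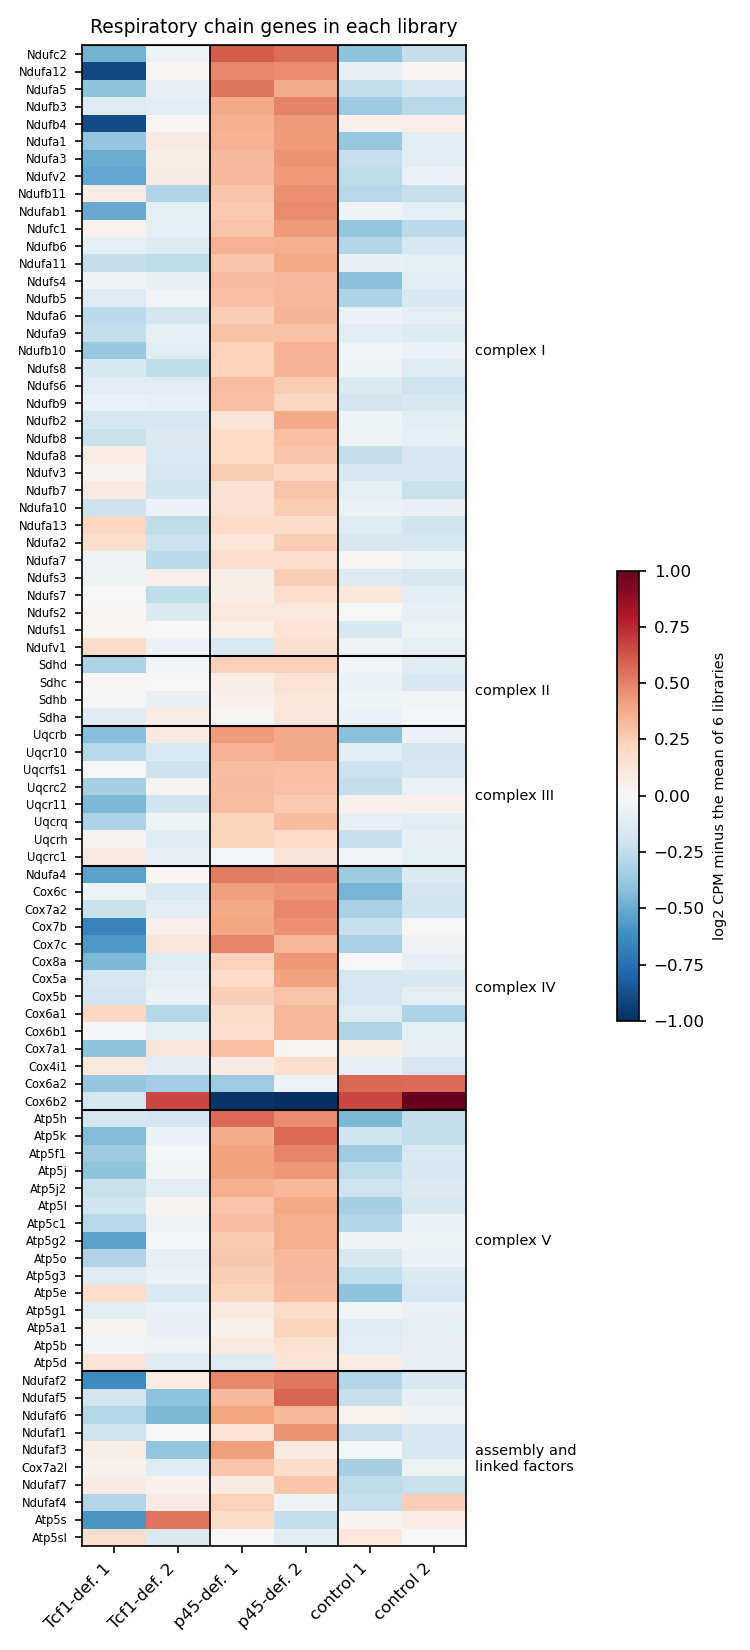
Each row is 1 of the 86 genes and each column 1 library; colour gives log2 CPM minus the mean of the gene over the 6 libraries, with values beyond 1 and −1 drawn at the ends of the scale. Red fills the 2 p45-deficient columns in nearly every row, and Cox6b2, at 4.85 and 4.07 CPM there, is blue.

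Complex I oxidises NADH, and 11 of its 35 genes rose in p45-deficient cells, with a median log2 fold change of 0.42. All 11 were among the 28 accessory subunits (median 0.44), and 0 of the 7 nuclear-coded core subunits, which carry the flavin and the iron-sulfur clusters, passed the test (median 0.20; 3 of 7 had an unadjusted p under 0.05). The difference between core and accessory subunits was not tested, and the median transcript length was 1312 bases for the core and 718 bases for the accessory genes. Ndufc2, a subunit of the membrane arm, had 142 and 137 CPM in p45-deficient cells, against 70.4 and 78.9 CPM in controls. Its groups did not overlap, and the log2 fold change was 0.90 (SE 0.16, edgeR adjusted p = 0.0132), the largest of the 86 genes.

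Ndufb3, also of the membrane arm, had 69.8 and 75.9 CPM in p45-deficient cells, against 41.5 and 44.3 CPM in controls, a log2 fold change of 0.76 (SE 0.12, edgeR adjusted p = 0.00947). Ndufb6 had 66.6 and 66.9 CPM in p45-deficient and 42.3 and 46.0 CPM in control cells, a difference of 0.60 on the log2 scale. Ndufc1 had 39.4 and 43.5 CPM in p45-deficient and 24.4 and 26.8 CPM in control cells (0.69), and Ndufb5 had 90.2 and 91.8 CPM in p45-deficient and 58.8 and 65.1 CPM in control cells (0.55). Each of these accessory subunits was higher in both p45-deficient libraries than in either control. The other accessory subunits that rose were Ndufa5 in the matrix arm (0.67), Ndufs4, an accessory subunit whose loss in humans causes Leigh syndrome (0.58), Ndufb11 (0.63), Ndufs6 (0.47), Ndufb9 (0.43) and Ndufa9 (0.42).

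At the other end of complex I stood Ndufv1, the core subunit that binds NADH, with 128 and 159.9 CPM in p45-deficient and 139 and 133 CPM in control cells. These groups overlapped, and the log2 fold change was 0.08 (SE 0.15, edgeR adjusted p = 0.743). The core iron-sulfur subunit Ndufs7 also overlapped, with 83.8 and 90.4 CPM in p45-deficient and 86.7 and 74.3 CPM in control cells.

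**Figure D3:**
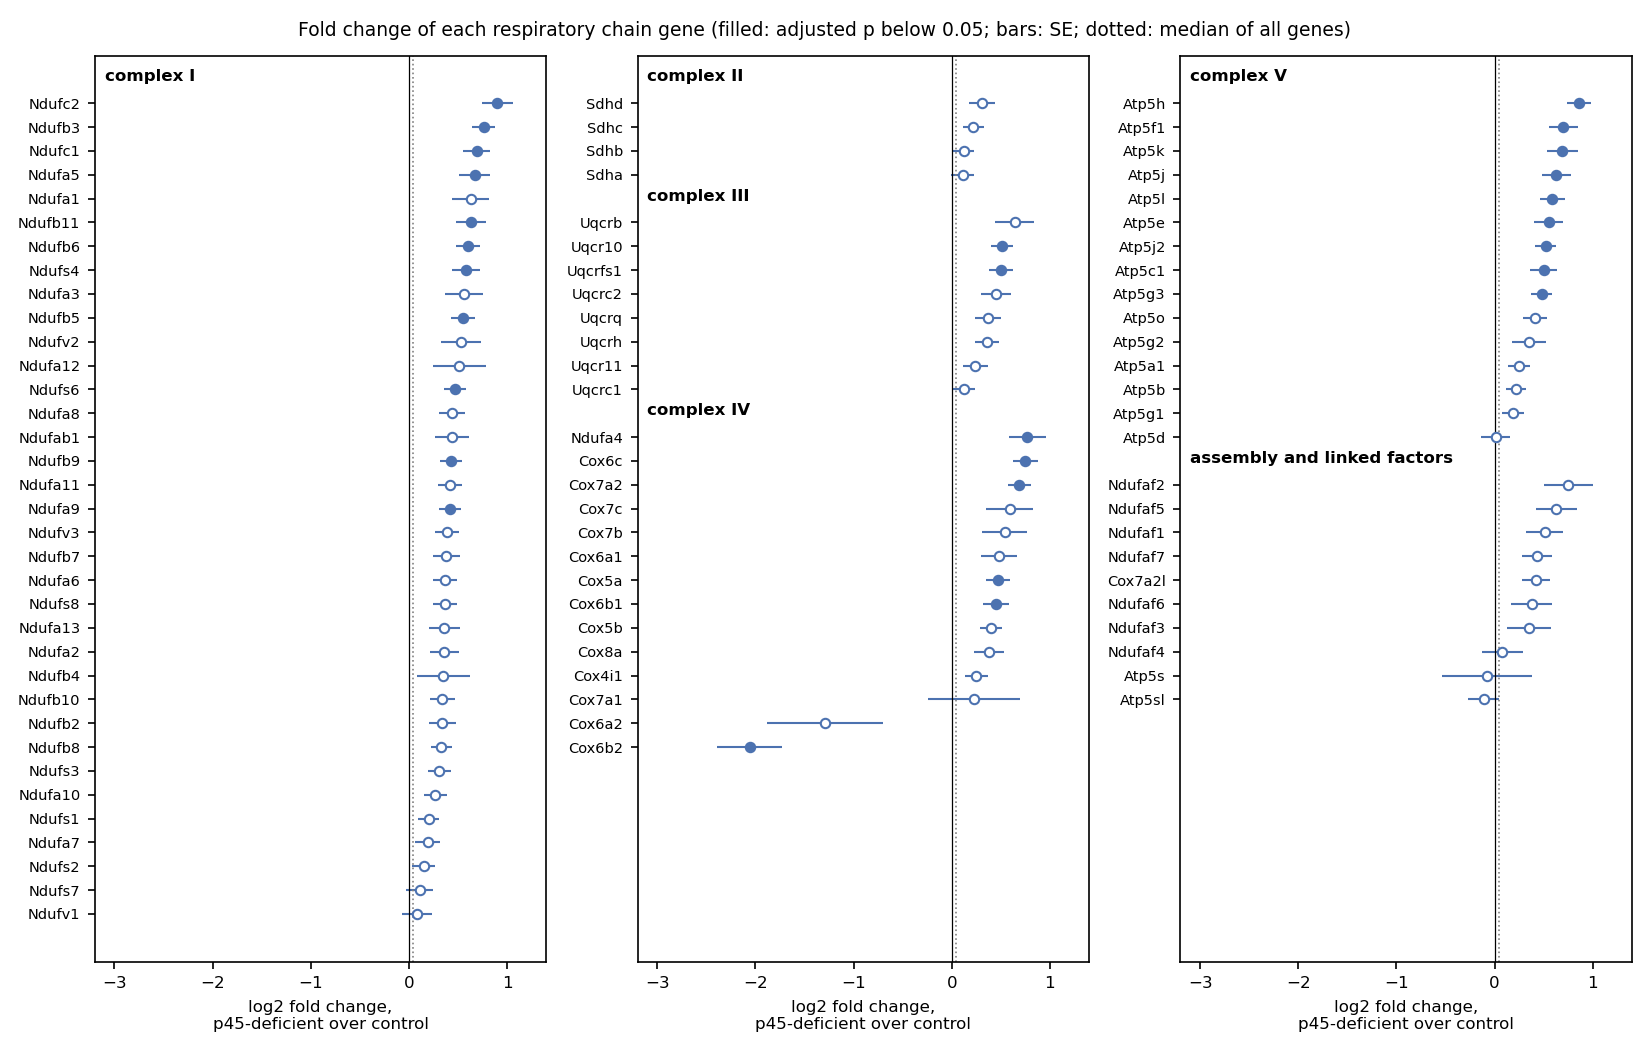
The log2 fold change of p45-deficient over control cells (x axis) for each gene (y axis), by complex; bars are 1 SE, filled points have an adjusted p below 0.05, and the dotted line is the median of all tested genes. All but 4 points lie right of 0, Ndufc2 is farthest right at 0.90 and Cox6b2 farthest left at −2.06.

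Complex II, which oxidises succinate and also serves in the citric acid cycle, had 0 of 4 genes called by edgeR, with a median log2 fold change of 0.17; 1 of 4, Sdhd, had an unadjusted p under 0.05. Sdha, the flavoprotein, had 361 and 391 CPM in p45-deficient cells, against 344 and 354 CPM in controls (0.11, SE 0.12). Sdhb, the iron-sulfur subunit, had 128 and 135 CPM in p45-deficient and 121 and 122 CPM in control cells (0.12, SE 0.11). The membrane anchors differed more: Sdhc had 104 and 110.3 CPM in p45-deficient and 95.6 and 89.1 CPM in control cells (0.22, SE 0.11), and Sdhd 129 and 129 CPM in p45-deficient and 107 and 101 CPM in control cells (0.31, SE 0.13, edgeR adjusted p = 0.14). For all 4 genes the p45-deficient libraries lay above both controls, by amounts that did not pass the test. Their median transcript length was 1612 bases, against medians of 519.5 to 838 bases for complexes I, III, IV and V. The difference between complexes was not tested.

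In complex III, which passes electrons from ubiquinol to cytochrome c, 2 of 8 genes rose and the median log2 fold change was 0.41. Uqcr10, a small supernumerary subunit, had 98.6 and 100.5 CPM in p45-deficient cells, against 71.5 and 67.9 CPM in controls (0.51, SE 0.11, edgeR adjusted p = 0.0264). Uqcrfs1, the Rieske iron-sulfur protein, had 116 and 116 CPM in p45-deficient and 80.7 and 83.5 CPM in control cells (0.50, SE 0.12, edgeR adjusted p = 0.0334). The p45-deficient libraries were above both controls for all 8 genes, with the smallest difference for the core protein Uqcrc1 (0.12, SE 0.12).

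In complex IV, cytochrome c oxidase, 5 of 14 genes rose and 1 fell, with a median log2 fold change of 0.46. Ndufa4, first assigned to complex I and now placed in complex IV, had 149 and 148 CPM in p45-deficient cells, against 80.6 and 94.0 CPM in controls (0.77, SE 0.19, edgeR adjusted p = 0.0359). Cox6c had 159 and 161 CPM in p45-deficient and 86.1 and 104 CPM in control cells (0.75, SE 0.13, edgeR adjusted p = 0.012). Cox7a2 had 97.5 and 104 CPM in p45-deficient and 59.7 and 65.2 CPM in control cells (0.69), and Cox5a 134 and 156 CPM in p45-deficient and 104 and 105 CPM in control cells (0.47). In these nuclear-coded subunits, which surround the mitochondrially encoded catalytic core, the groups did not overlap.

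The gene that fell was Cox6b2, an isoform of subunit 6b known from testis. It had 4.85 and 4.07 CPM in p45-deficient cells, against 16.3 and 21.0 CPM in controls, a log2 fold change of −2.06 (SE 0.33, edgeR adjusted p = 0.01). Its ubiquitous paralog Cox6b1 had 156 and 173 CPM in p45-deficient and 112 and 128 CPM in control cells and rose (0.45, SE 0.13, edgeR adjusted p = 0.0494). The rise of Cox6b1 was not called with library totals, upper-quartile scaling, no filter or a replicate block. With a length offset it was 0.08 (edgeR adjusted p = 0.668). In the main test the pair moved in opposite directions. Cox6b2 made up 3.37% and 2.55% of the pair's CPM per kilobase in p45-deficient cells, against 14.1% and 15.4% in controls. In Tcf1-deficient cells Cox6b2 had 8.92 and 16.3 CPM, or 6.86% and 12.3% of the pair. Both values were below both controls, though replicate 2 barely so, at 16.27 CPM beside 16.34 CPM in control replicate 1. The difference from controls did not pass the test (−0.57, SE 0.32, edgeR adjusted p = 0.688). Against p45-deficient cells Cox6b2 was higher (1.5, SE 0.33, edgeR adjusted p = 0.0346). That call was lost with a GC offset and with only the 2 groups compared, while the value stayed between 0.98 and 1.92 over all alternatives. No near-identical copy of Cox6b1 or Cox6b2 was found among annotated transcripts. Its fall in p45-deficient cells was no longer called when control replicate 2 or either p45-deficient replicate (1 or 2) was left out (over all alternatives the adjusted p, by edgeR or DESeq2, ran between 2.16e-07 and 0.0789).

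The other isoform families follow. Cox6a2, an isoform of heart and muscle, was rare in all groups, with 0.352 and 0.375 CPM in Tcf1-deficient, 0.368 and 0.574 CPM in p45-deficient and 1.16 and 1.15 CPM in control cells. The controls were above all 4 other libraries. The log2 fold changes against controls were −1.65 in Tcf1-deficient and −1.29 in p45-deficient cells, which at these low counts did not pass the test (edgeR adjusted p = 0.613 and 0.174). The muscle isoform Cox7a1 had 2.10 and 1.63 CPM in p45-deficient and 1.69 and 1.49 CPM in control cells, which overlapped. Cox7b, whose paralog Cox7b2 was at 0, had 144 and 151 CPM in p45-deficient and 93.3 and 109 CPM in control cells (0.54, edgeR adjusted p = 0.146). The ubiquitous Cox4i1 had 336 and 357 CPM in p45-deficient and 300.3 and 282 CPM in control cells (0.25, SE 0.12, edgeR adjusted p = 0.199), Cox6a1 243 and 270.1 CPM in p45-deficient and 196 and 173 CPM in control cells (0.48, SE 0.18, edgeR adjusted p = 0.107). The 3 genes Atp5g1, Atp5g2 and Atp5g3 encode the same proton-carrying subunit c of ATP synthase. Only Atp5g3 of them passed the test, with 340.0 and 359 CPM in p45-deficient and 242 and 259 CPM in control cells (0.48, SE 0.11, edgeR adjusted p = 0.0292), beside 0.19 for Atp5g1 and 0.35 for Atp5g2, whose whole annotated transcript is near-identical to that of another gene.

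**Figure D4:**
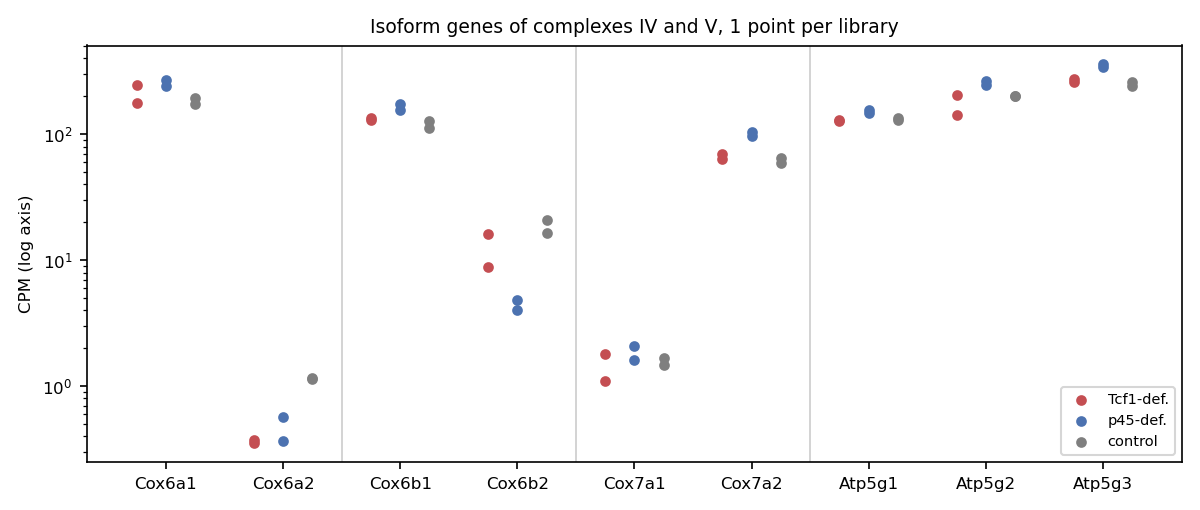
CPM (log axis) of paralogous genes of complexes IV and V in each library, coloured by genotype. Cox6b2 is lowest in p45-deficient cells, at 4.85 and 4.07 CPM, where Cox6b1 is highest, and Cox6a2 is highest in controls, at 1.16 and 1.15 CPM.

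Complex V had the highest share of genes called, 9 of 15 higher, with a median log2 fold change of 0.50. Of the 10 genes for the membrane part and the peripheral stalk, 7 rose (median 0.55). Of the 5 genes for F1, the catalytic head with its central stalk, 2 rose (median 0.25). The difference between these groups was not tested; their median transcript lengths were 701 and 1166 bases. Atp5h, subunit d of the peripheral stalk, had 295 and 277 CPM in p45-deficient cells, against 146 and 169 CPM in controls (0.86, SE 0.12, edgeR adjusted p = 0.00682). Atp5f1, subunit b of the same stalk, had 344 and 364 CPM in p45-deficient and 203 and 234 CPM in control cells (0.70, SE 0.15, edgeR adjusted p = 0.0242). These stalk genes were higher in both p45-deficient libraries than in any other library.

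Among the small membrane subunits, Atp5k (subunit e) had 104 and 119 CPM in p45-deficient and 70.2 and 67.9 CPM in control cells (0.69). Atp5l (subunit g) had 152 and 163 CPM in p45-deficient and 98.7 and 111 CPM in control cells (0.59), and Atp5j2 (subunit f) 173 and 170.2 CPM in p45-deficient and 117 and 122 CPM in control cells (0.52). The peripheral stalk gene Atp5j, and Atp5c1 and Atp5e of the central stalk of F1, rose as well (0.63, 0.50 and 0.55). The F1 genes with the highest levels differed less. Atp5b had 1647 and 1712 CPM in p45-deficient and 1433 and 1458 CPM in control cells (0.22, SE 0.10, edgeR adjusted p = 0.164), and Atp5a1, the alpha subunit, 1093 and 1241 CPM in p45-deficient and 975 and 991 CPM in control cells (0.25, SE 0.11, edgeR adjusted p = 0.167). Atp5d, the delta subunit, overlapped, with 192 and 229.9 CPM in p45-deficient and 221 and 198 CPM in control cells (0.01, SE 0.15).

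None of the 10 assembly and linked factors was called by edgeR, 5 had an unadjusted p under 0.05, and their median log2 fold change was 0.40. Cox7a2l, which helps join complexes III and IV into supercomplexes, had 244 and 229 CPM in p45-deficient and 161 and 195 CPM in control cells (0.42, SE 0.14, edgeR adjusted p = 0.0772). The complex I assembly factor Ndufaf2 had 22.6 and 23.4 CPM in p45-deficient and 13.1 and 14.3 CPM in control cells (0.75, SE 0.25, edgeR adjusted p = 0.0838). Both genes were above both controls. Atp5sl was among the few below, with 30.6 and 28.4 CPM in p45-deficient and 33.1 and 30.7 CPM in control cells (−0.11, SE 0.16).

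Counts of some genes are uncertain because near-identical sequence is annotated elsewhere. For 12 of the 86 genes, at least 50% of a transcript matched another gene at 95% identity or more, and 6 of these 12 (Atp5c1, Atp5h, Atp5k, Atp5l, Ndufb11 and Ndufs6) were among those that rose. Among the other 74 genes, 21 rose and 1 fell. Some of these also match another gene over a smaller part, such as Cox6c (45.9%) and Ndufb3 (37%), which rose. In all, 37 of the 86 genes had some such match. A further source is overlap with a gene on the opposite strand, which 31 of the 86 genes had and which counts without strand cannot separate. Of the 55 genes without such overlap, 17 rose and 1 fell. Some genes also overlap a gene on the same strand, among them Ndufc2 (with the processed pseudogene Gm16053) and Ndufb9 (with Gm49356). Both of these rose, and same-strand overlap was not set apart in the counts given here. Ndufs5, listed at 0 in every library, shares 60.8% of its transcript with BC002163, which itself had at most 3 counts in a library.

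Promoter sequences were compared for the genes that moved together, using windows of 250 bases before to 50 after the start from RefSeq (GRCm38.p6), found for 70 of the 86 genes. The motifs were NRF1 (GCGCATGC), ETS (CCGGAAGT), YY1 (AAGATGGC), TCF/LEF (CTTTGAT) and the E box (CACGTG), searched on both strands; none of them contains another. NRF1 and the ETS factor GABP are known regulators of respiratory chain genes, YY1 binds many of their promoters, and TCF/LEF is the motif of Tcf1 and its relatives. NRF1 letters were in 17.1% of the 70 promoters, against 6.06% of the 9722 tested genes with a promoter and 3.05% of all 27025. YY1 letters were in 12.9% of the 70, against 5.33% of tested genes and 3.19% of all. ETS letters were in 7.14%, 9.01% and 4.31%, E boxes in 7.14%, 11.7% and 8.09%, and TCF/LEF letters in 1.43%, 3.03% and 4.29% of these 3 sets. A match is a description of letters and not a bound site. By group, YY1 letters were in 6 of the 24 promoters of genes that rose in p45-deficient cells and in 3 of the 45 not called; for NRF1 the counts were 2 of 24 and 10 of 45. The difference between these shares was not tested.

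The 4 promoters shown stand for the findings above, each on the minus strand, written 5′ to 3′, with matched motif letters in capitals, as they read on that strand (ATCAAAG is TCF/LEF reversed). Ndufc1 (chr3:51408906-51409205) is shown as a gene that rose and holds YY1 letters, Ndufa5 (chr6:24527641-24527940, 1 of its 2 annotated starts) as the gene with the only TCF/LEF match among the 70, and Cox6b1 (chr7:30626065-30626364) and Cox6b2 (chr7:4753045-4753344) as the pair that moved in opposite directions, with no match to any of the 5 motifs.
Ndufc1: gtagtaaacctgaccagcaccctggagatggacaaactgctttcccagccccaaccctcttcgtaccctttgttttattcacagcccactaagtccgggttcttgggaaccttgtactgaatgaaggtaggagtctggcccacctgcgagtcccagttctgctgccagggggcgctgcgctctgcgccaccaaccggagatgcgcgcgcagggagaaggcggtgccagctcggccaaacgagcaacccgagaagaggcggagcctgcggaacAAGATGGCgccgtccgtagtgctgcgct
Ndufa5: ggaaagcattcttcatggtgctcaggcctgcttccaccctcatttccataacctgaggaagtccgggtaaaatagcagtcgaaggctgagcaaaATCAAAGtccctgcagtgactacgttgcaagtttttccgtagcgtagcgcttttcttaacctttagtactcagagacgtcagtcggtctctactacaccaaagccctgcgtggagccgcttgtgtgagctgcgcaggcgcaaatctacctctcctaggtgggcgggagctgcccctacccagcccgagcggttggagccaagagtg
Cox6b1: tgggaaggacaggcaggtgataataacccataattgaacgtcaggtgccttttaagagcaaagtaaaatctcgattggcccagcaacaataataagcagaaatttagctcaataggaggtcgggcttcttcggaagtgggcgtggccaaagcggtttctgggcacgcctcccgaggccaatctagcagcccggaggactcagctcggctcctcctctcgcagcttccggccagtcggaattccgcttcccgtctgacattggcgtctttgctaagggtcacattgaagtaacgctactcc
Cox6b2: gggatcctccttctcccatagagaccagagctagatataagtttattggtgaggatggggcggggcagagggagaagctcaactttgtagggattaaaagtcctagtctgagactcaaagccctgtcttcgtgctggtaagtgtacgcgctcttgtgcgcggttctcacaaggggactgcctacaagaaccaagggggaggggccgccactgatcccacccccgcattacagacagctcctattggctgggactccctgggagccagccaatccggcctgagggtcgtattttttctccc

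In Tcf1-deficient against control cells, 0 of the 86 genes were called by edgeR, as were 0 of all 12939 genes tested; 2 of the 86 had an unadjusted p under 0.05 (7.91% of all genes), and DESeq2 called 0 of the 86, with 80 of 17456 genes called higher and 65 lower. The median log2 fold change was 0.01, as it was for all genes, and 48 of the 86 values were positive. Both Tcf1-deficient libraries lay above both controls for 19 genes (16.4% of all genes) and below both for 13 (18.0%). The genes with an unadjusted p under 0.05 were Cox6a2, given above, and Uqcr11, a small subunit of complex III, with 52.6 and 62.5 CPM in Tcf1-deficient and 74.3 and 74.3 CPM in control cells (−0.37, SE 0.13, edgeR adjusted p = 0.613).

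The largest positive values in Tcf1-deficient cells were 0.31 for the assembly factor Ndufaf7, with 24.8 and 24.1 CPM in Tcf1-deficient and 19.5 and 20.0 CPM in control cells, 0.31 for Atp5e and 0.30 for Ndufc1. The largest negative values among genes with at least 5 CPM were −0.57 for Cox6b2, −0.42 for Ndufb4 and −0.38 for the assembly factor Ndufaf6, with 8.13 and 7.20 CPM in Tcf1-deficient and 10.2 and 9.73 CPM in control cells. Ndufb4, a membrane-arm subunit, had 22.0 CPM in Tcf1-deficient replicate 1 and 41.7 CPM in replicate 2, against 42.3 and 42.7 CPM in controls. Ndufa12, an accessory subunit of the matrix arm, had a like split, 42.9 and 81.5 CPM in Tcf1-deficient and 76.6 and 81.7 CPM in control cells. Both genes were low in the library that stood apart. Without Tcf1-deficient replicate 2, edgeR called 3 genes lower, Ndufb4 (−0.96), Ndufa12 (−0.89) and Atp5g2 (−0.51); without replicate 1 it called 0, with a median of 0.06. Over all genes 4.93% were then called higher and 1.66% lower without replicate 2, and 0.0972% higher and 0.0224% lower without replicate 1. Over the 86 genes, replicates 1 and 2 differed on the log2 scale with an SD of 0.34 in Tcf1-deficient, 0.14 in p45-deficient and 0.14 in control cells.

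Tcf1-deficient and p45-deficient cells were also set against each other; this comparison shares the p45-deficient libraries with the first and is no separate evidence of their level. In Tcf1-deficient cells 22 of the 86 genes were lower and 1, Cox6b2, was higher (edgeR; 5.36% lower and 5.05% higher over all genes, 10.4% in all). The median log2 fold change was −0.42, against −0.01 for all genes, and both Tcf1-deficient libraries lay below both p45-deficient ones for 72 genes (33.3% of all genes) and above for 1 (27.7%). The lower genes comprised 10 of complex I, 0 of complex II, 2 of complex III, 4 of complex IV, 6 of complex V and 0 of the assembly factors. The number called lower was 0 when either p45-deficient library (replicate 1 or 2) was left out, 1 without control replicate 1, 1 without control replicate 2, 6 without Tcf1-deficient replicate 1 and 43 without replicate 2. The share of all genes called lower in these fits was at most 0.734% without a p45-deficient library and 1.87% without a control library. It was 3.99% without Tcf1-deficient replicate 1 and 13.2% without the other.

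Ndufc2 had 67.1 and 89.8 CPM in Tcf1-deficient cells, against 142 and 137 CPM in p45-deficient cells (−0.83, SE 0.16, edgeR adjusted p = 0.0243). Atp5h had 177 and 174 CPM in Tcf1-deficient and 295 and 277 CPM in p45-deficient cells (−0.70, SE 0.12, edgeR adjusted p = 0.0184). Genes called here that had not been called against control included Ndufab1, the mitochondrial acyl carrier protein, with 40.2 and 53.5 CPM in Tcf1-deficient and 68.4 and 79.5 CPM in p45-deficient cells (−0.66, SE 0.17, edgeR adjusted p = 0.0483). Cox8a, a small subunit of complex IV, had 117 and 146 CPM in Tcf1-deficient and 187 and 216 CPM in p45-deficient cells (−0.62, SE 0.15, edgeR adjusted p = 0.0413), and Uqcr11 had 89.1 and 86.3 CPM in p45-deficient cells, above its Tcf1-deficient values given before (−0.61, SE 0.13, edgeR adjusted p = 0.0305). In each of these genes the groups did not overlap. The others called lower here and not against control were Ndufa6, Ndufa11, Ndufb10 and the core subunit Ndufs8 of complex I, and Atp5o, the stalk protein OSCP, with 154 and 179.9 CPM in Tcf1-deficient and 230.1 and 238 CPM in p45-deficient cells (−0.49, edgeR adjusted p = 0.0488). Ndufa12 had the most negative value but did not pass (−0.86, SE 0.27, edgeR adjusted p = 0.0901), nor did Ndufaf5, with 10.9 and 9.24 CPM in Tcf1-deficient and 15.7 and 18.9 CPM in p45-deficient cells (−0.78, SE 0.21, edgeR adjusted p = 0.0585). Apart from Cox6b2, the values above 0 were those of Atp5s (0.11), Atp5sl (0.07) and Ndufv1 (0.05), none called.

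Transcript length moved with the fold changes of p45-deficient over control cells, as the plot of fold change by length shows. Respiratory chain transcripts are short, with a median of 759 bases over the 86 genes (321.5 to 3632). The median log2 fold change of all tested genes was 0.36 for transcripts under 600 bases, 0.29 for 600 to under 1000 bases, 0.14 for 1000 to under 2000 bases and −0.01 for 2000 bases and over. Over the same classes the respiratory chain genes had medians of 0.47, 0.46, 0.36 and 0.25, above all genes in each class. Across genes, which are not independent replicates and share these libraries, Spearman's rho of fold change with length was −0.38 over the 86 genes and −0.16 over 12201 genes with a length. Of the 661 tested genes with transcripts under 1000 bases and a mean of at least 10 CPM, 19.4% rose, against 22 of the 50 respiratory chain genes among them (44%).

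With a length trend removed from each library, an alternative chosen after seeing the data, the median log2 fold change of the 86 genes in p45-deficient over control cells was 0.16 (0.01 for all genes) and 71 of 86 values were positive. Then 4 of the 86 genes rose, Ndufb3 (0.48), Atp5h (0.55), Atp5f1 (0.60) and Ndufc2 (0.57), and Cox6b2 fell (−2.45). In each direction that was a smaller share than over all genes, of which 6.84% rose and 7.79% fell in that fit. By complex the medians were 0.19 for I, 0.12 for II, 0.07 for III, 0.12 for IV and 0.21 for V. For Tcf1-deficient against p45-deficient cells the median was −0.20, and Cox6b2 (1.84) was the 1 gene called. Over all genes 5.39% were called higher and 4.21% lower in that comparison. The trend with length may hold both library preparation and expression, and its source was not tested.

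**Figure D5:**
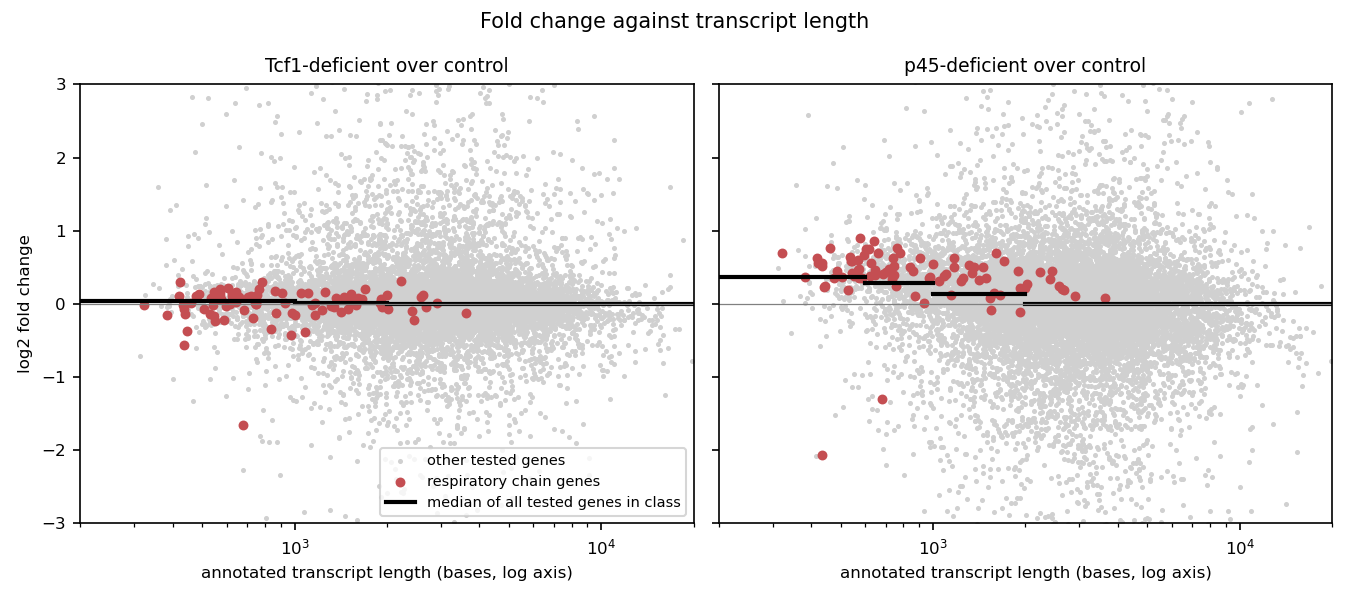
Log2 fold change (y axis, drawn to 3 on either side of 0) against annotated transcript length (x axis, log scale) for all tested genes (grey) and respiratory chain genes (red), with the median of all tested genes in each length class as black lines; left Tcf1-deficient over control, right p45-deficient over control. On the right the black lines step down with length, through 0.36, 0.29, 0.14 and −0.01, and most red points lie above them.

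Genes beside the named subunits were counted from lists. Of 11 other electron carriers and subunits tested, 5 rose in p45-deficient cells and 0 fell (list median 0.21), beside 8.47% of all genes that rose. Etfa and Etfdh, which pass electrons from fatty acid oxidation to ubiquinone, had 125 and 122 CPM and 62.5 and 61.5 CPM in p45-deficient cells, against 67.9 and 73.4 CPM and 33.5 and 39.4 CPM in controls (0.81 and 0.76; edgeR adjusted p = 0.00722 and 0.0125). Gpd2, the mitochondrial glycerol phosphate dehydrogenase, had 81.5 and 79.7 CPM in p45-deficient and 50.4 and 46.1 CPM in control cells (0.74, SE 0.12, edgeR adjusted p = 0.0105). Cycs, cytochrome c, was also called (0.69), as was Usmg5, a small ATP synthase protein (0.74). In Tcf1-deficient against p45-deficient cells Etfa (−0.63), Etfdh (−0.71) and Gpd2 (−0.55) were lower.

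Among assembly factors outside the name rule, 1 of 7 for complex I (Foxred1, 0.52), 0 of 7 for complexes II and III, 2 of 17 for complex IV (the copper chaperone Cox17, 0.71, and Coa3, 0.48) and 0 of 3 for complex V rose in p45-deficient against control cells, beside the 8.47% of all genes that rose. List medians lay between 0.12 and 0.26. Of 17 regulators of mitochondrial DNA and gene expression, 2 rose and 2 fell, with a median of −0.01. Tfam, which packages and transcribes mitochondrial DNA, had 106 and 107 CPM in p45-deficient and 68.8 and 68.9 CPM in control cells (0.63, SE 0.11, edgeR adjusted p = 0.0117), and Gabpb1, a partner of the GABP factor, rose by 0.50. Peo1, the mitochondrial DNA helicase, had 32.5 and 39.9 CPM in p45-deficient and 64.9 and 57.3 CPM in control cells (−0.76, SE 0.15, edgeR adjusted p = 0.0178), and the coactivator Pprc1 fell by 0.57. Nrf1 itself had 98.3 and 108 CPM in p45-deficient and 89.1 and 89.7 CPM in control cells (0.21, SE 0.11, edgeR adjusted p = 0.242). Of 17 carriers and structural proteins of the mitochondrial membranes, 3 rose (Vdac3, 0.71; Timm23, 0.47; Tomm20, 0.40). In Tcf1-deficient against control cells edgeR called 0 genes of these lists. In Tcf1-deficient against p45-deficient cells Cox17 (−0.60), Vdac3 (−0.66) and Timm23 (−0.51) were lower and Polg2, a subunit of the mitochondrial DNA polymerase, was higher (0.99).

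Cell cycle genes moved in the same direction as the respiratory chain. The 20 genes of the list summed to 4963 and 6441 CPM in Tcf1-deficient, 8509 and 9069 CPM in p45-deficient and 5888 and 5325 CPM in control cells. In p45-deficient against control cells 11 of 20 rose (median 0.78), against 8.47% of all genes. Among them were Cenpa (1.27), Birc5 (1.24) and Cdk1 (1.18), which serve mitosis. Mcm2 to Mcm7 (0.16 to 0.41) and Pcna (0.82, edgeR adjusted p = 0.0507) were among the genes not called. In Tcf1-deficient cells 11 of 20 were lower than in p45-deficient cells (median −0.82), against 5.36% of all genes. Against control 0 of 20 were called (edgeR), as were 0 of all genes. The part of the proliferating fraction in the respiratory chain values was not tested.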

How the data were processed

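RNA of sorted DN3 thymocytes was measured in 6 libraries, grouped by the genotype in their labels. Each deposited file gives raw read counts, whole numbers listed by gene symbol, as counted by the authors. The submitters' processing notes name TopHat2, featureCounts 1.5.0-p3, DESeq2 3.4 and the build mm9, without roles; neither the gene annotation nor strandedness is given there. The genes and lists were chosen with earlier results of these data known.

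Counts were tested with edgeR 4.0.16 (R 4.3.3): filterByExpr (12939 genes), TMM scaling, 1 mean per group over all 6 libraries (3 residual degrees of freedom, common biological coefficient of variation 0.215), robust quasi-likelihood F tests, two-sided, with Benjamini-Hochberg adjustment within each comparison at 0.05. SEs come from the F statistic. The test was tried on simulated counts. Named genes are those called (the 5 with the smallest p where a complex had over 8), the 3 largest positive and negative values at 5 CPM or more, the isoform families, the Sdh genes and called genes of each list; other genes called or with an unadjusted p under 0.05, and Ndufaf2, Cox7a2l, Uqcrc1, Ndufs7, Nrf1, Atp5b and Atp5a1, were added after their values were seen.

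Lengths are medians of coding transcripts in an annotation of GRCm38, available for 12201 tested genes and all 86 respiratory chain genes, and matches to other transcripts used at least 100 bases. DESeq2 1.42.0, other scalings and filters, a replicate block, leaving out each library, and length and GC offsets (lowess, span 0.3) were alternatives. Replicate numbers in the titles gave no sign of pairing, and the libraries were not paired in the main test.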

Additional observations from a re-analysis of the deposited data

How the results depend on the processing

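Directions held widely while the number of genes called did not. In p45-deficient against control cells, 28 genes were called in all; the count was 13 with library totals, 51 with only the 2 groups compared, 5 with a length offset, and 0 to 60 when single libraries were left out (1 without control replicate 1, 2 without control replicate 2, 0 without either p45-deficient library, 46 and 60 without Tcf1-deficient replicates 1 and 2). The median log2 fold change was 0.31 with library totals, 0.34 with upper-quartile scaling and 0.36 with no filter. It was 0.16 with a length offset, 0.41 with a GC offset and 0.36 to 0.45 with single libraries left out. Library totals shifted the median of all genes to −0.06, beside 0.05 with TMM scaling, and split all calls into 721 higher and 1281 lower, beside 1096 and 977; the 86 genes' median stood 0.37 above that of all genes under both. In Tcf1-deficient against control cells the count was 0 to 3 and the median −0.049 to 0.055 with single libraries left out. In Tcf1-deficient against p45-deficient cells 23 were called; the count was 10 with library totals, 13 with upper-quartile scaling, 1 with only the 2 groups compared, 1 with a length offset and 0 to 44 with single libraries left out, and the median was −0.36 with library totals, −0.20 with a length offset and −0.47 to −0.33 with single libraries left out. With the replicate number as a block the calls were 21, 0 and 10 in these 3 comparisons; deviations of same-numbered libraries correlated at −0.04, −0.06 and −0.04, so the numbers gave no sign of pairing. DESeq2 called 32, 0 and 34. For p45-deficient against control, library totals gave log2 ratios of summed CPM of 0.30, 0.05, 0.26, 0.35 and 0.25 for complexes I to V. For assembly factors the ratio was 0.26. Another measure centred log2 CPM on each gene's mean, took the median over genes in each library and compared group means of these medians. It gave 0.43 for III and 0.48 for V, beside median log2 fold changes of 0.41 and 0.50 from edgeR. For Tcf1-deficient against control, library totals gave −0.04 for I, −0.05 for III, 0.00 for IV and 0.01 for V. The centred medians gave −0.07 for III and −0.01 for IV, where the median log2 fold changes from edgeR were 0.04 and 0.01. For Tcf1-deficient against p45-deficient, library totals gave −0.34, −0.30, −0.35 and −0.24 for I, III, IV and V. The centred medians gave −0.50 for III and −0.43 for V, beside −0.44 and −0.49 from edgeR. The cause of these shifts was not tested. Over the values of named genes under all alternatives, 0 reversed in direction among calls, 281 lost their call and 55 gained one. Depth limits Cox6a2 and Cox7a1 most, with 93 and 233 counts over 6 libraries.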
